A study of Rattus norvegicus with 3 samples.

Results

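Inhibitory interneurons of the cortex release neuropeptides beside GABA, and the genes described here encode 10 receptors for those peptides. They were taken by gene symbol: the somatostatin receptors Sstr1, Sstr2, Sstr3 and Sstr4, the neuropeptide Y receptors Npy1r, Npy2r and Npy5r, the cholecystokinin receptor Cckbr, the corticotropin-releasing hormone receptor Crhr1 and the vasoactive intestinal peptide receptor Vipr1. All 10 symbols were found among the 30957 genes of each table, each with a single gene ID. The samples are motor cortex from 3 untreated male rats of the outbred Sprague-Dawley stock, numbered 32, 39 and 68, with 1 mRNA library per animal. The labels call this 1 group normal and give 8 weeks as its time, without saying that this is an age. No other group was analysed here, so the comparisons are between receptor genes and between single animals, and the animal, its dissection and its library cannot be told apart.

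All of these receptors span the membrane with a bundle of helices and signal through G proteins. Somatostatin and neuropeptide Y receptors couple to the inhibitory Gi and Go proteins, which lower cyclic AMP and open GIRK potassium channels. The cholecystokinin B receptor couples to Gq and phospholipase C, while the receptors for corticotropin-releasing hormone and vasoactive intestinal peptide couple to Gs and raise cyclic AMP. In cortex GABAergic cells are among the sources of such peptides, and their receptors sit on pyramidal cells, on other interneurons and on nerve endings.

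Values are FPKM, fragments counted per gene and divided by gene length and library size by the authors, so levels of different genes can be set side by side as far as their gene models allow. Inferred depth was 15460924 to 17670986 fragments per library, and a gene at 1 FPKM therefore rested on 15.5 to 17.7 fragments per kilobase. Log2 values were taken of FPKM plus 0.1, which understates differences of low genes. Cortical markers were present in every animal, and all 6 glutamatergic neuron genes, all 6 GABAergic neuron genes and all 7 deep-layer genes of the marker lists reached 1 FPKM in each. The library of animal 68 stood apart. The 9 choroid plexus genes found summed to 61.0, 705 and 8194 FPKM in animals 32, 39 and 68, the 8 oligodendrocyte genes to 3274, 5054 and 8881, and the 6 astrocyte genes to 272, 435 and 875. Sums of the 8 striatal genes were 139, 118 and 259, and those of the 12 pan-neuronal genes 4709, 4192 and 3441. None of the choroid plexus, oligodendrocyte, astrocyte or striatal genes found was listed at 0 in all animals.

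The receptor genes were expressed at low to moderate levels. All 10 were above 0 in every animal, 9 of 10 reached 1 FPKM in all 3 animals, and 40.7% of all genes did so. Mean levels ran from 2.29 FPKM for Vipr1 to 11.0 FPKM for Sstr4, with 37.8 and 20.9% of all genes above them. The order of the means was Sstr4, Sstr1, Crhr1, Sstr3, Cckbr, Npy1r, Npy2r, Sstr2, Npy5r and Vipr1. In 8 of the 9 pairs of neighbours in this order the values of the 3 animals overlapped, so these neighbours did not differ beyond their spread. Sstr2 and Npy5r were the exception: Sstr2 was higher in 3 of 3 animals, with a mean log2 ratio of 1.03 ± 0.58 (SD, n = 3). An exact sign-flip test (2-sided) gave p = 0.25 for this pair, which is the smallest p that 3 animals allow. Over all 45 pairs of receptor genes, 17 had values that did not overlap. Compared within each animal, the same gene of the pair was the higher in all 3 animals in 22 of the 45. Neither count was taken over pairs of other genes.

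**Figure D1:**
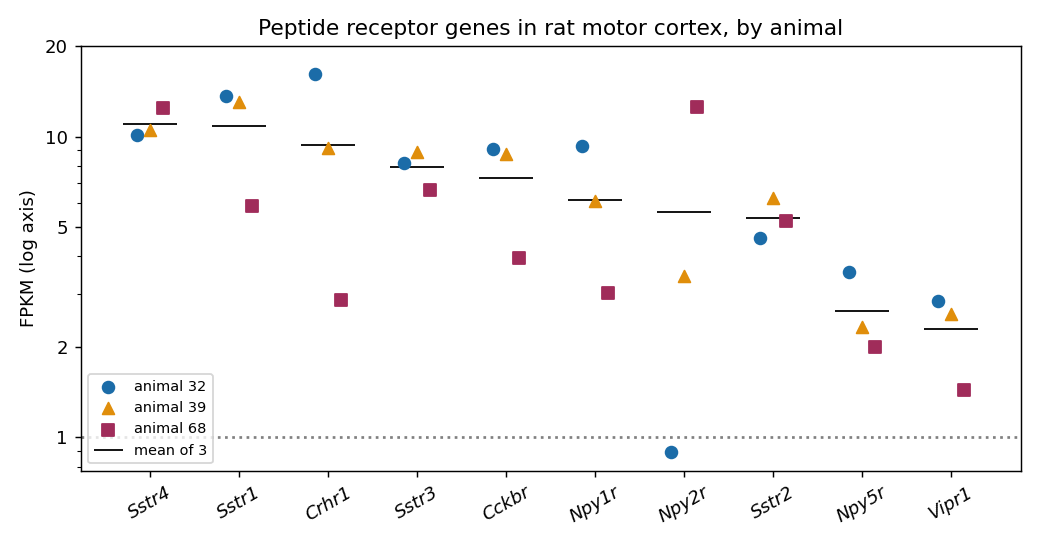
FPKM (log axis) of each receptor gene in animals 32, 39 and 68, ordered by the mean of the 3 (black lines), with a dotted line at 1 FPKM. Values of Sstr4, Sstr3 and Sstr2 lie close together, while Npy2r runs from 0.895 to 12.5 FPKM and Crhr1 from 16.1 down to 2.86.

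The place of a gene in this order differed between animals. Crhr1 was the highest of the 10 in animal 32, Sstr1 in animal 39 and Npy2r in animal 68. Npy2r was last in animal 32, and Crhr1 was in place 8 in animal 68. Sstr4 held place 3, 2 and 2 in animals 32, 39 and 68, and Vipr1 place 9, 9 and 10.

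The 4 somatostatin receptor genes carried the largest summed level of the receptor families, and Sstr4 and Sstr1 had the highest means of the 10. Their sum was 36.5, 38.6 and 30.2 FPKM in animals 32, 39 and 68 (35.1 ± 4.36, SD, n = 3), and the order of animals 32 and 68 flips when libraries are scaled to the pan-neuronal genes. Sstr4 (chromosome 3, 142739781 to 142741644 in Rnor_6.0) measured 10.1, 10.5 and 12.5 FPKM. Its gene model is 1864 bases long, which gives about 311, 302 and 411 fragments, with exact Poisson 95% intervals that cover counting error only. In FPKM these intervals were 8.99 to 11.27, 9.33 to 11.7 and 11.30 to 13.7, so that of animal 68 overlapped that of animal 39 and began just above the end of that of animal 32.

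Sstr1 (chromosome 6, 79254339 to 79258611) measured 13.7, 13.0 and 5.87 FPKM in animals 32, 39 and 68. Animals 32 and 39 lay close together and animal 68 was 2.33-fold lower than animal 32. Sstr1 exceeded Sstr4 by 0.43 and 0.31 on the log2 scale in animals 32 and 39 and was below it by a log2 ratio of -1.08 in animal 68, a pair singled out after its values were seen. Of the family's sum, Sstr1 held 37.4, 33.7 and 19.4% and Sstr4 27.6, 27.1 and 41.3%.

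Sstr3, a receptor found on the primary cilium of neurons, held the least variable share of the family's sum. It measured 8.16, 8.86 and 6.66 FPKM in animals 32, 39 and 68 and held 22.4 ± 0.463% of that sum (SD, n = 3). Sstr2, the receptor that most somatostatin drugs bind best, measured 4.60, 6.26 and 5.23 FPKM. The SD of log2 values was 0.16 for Sstr4, 0.21 for Sstr3 and 0.22 for Sstr2, close to the median of 0.20 over the 13378 genes whose mean reached 1 FPKM. For Sstr1 it was 0.68, and 92.1% of those genes had a lower SD.

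Among neuropeptide Y receptors, Npy1r led in animals 32 and 39 and Npy2r in animal 68. The sum of the 3 genes was 13.8, 11.9 and 17.5 FPKM in animals 32, 39 and 68, 1.47-fold from lowest to highest. Npy1r, the receptor that mediates much of the postsynaptic action of the peptide (chromosome 16, 24779477 to 24788740, minus strand), measured 9.31, 6.10 and 3.01 FPKM. Npy2r, which sits largely on nerve endings and restrains transmitter release (chromosome 2, 181530832 to 181531978, minus strand), measured 0.895, 3.44 and 12.5 FPKM. The 3 animals thus ranked in opposite order for these genes, and Npy1r held 67.6, 51.4 and 17.2% of the family's sum against 6.51, 29.0 and 71.4% for Npy2r. The log2 ratio of Npy1r to Npy2r was 3.24, 0.81 and -2.02 in animals 32, 39 and 68 (mean 0.68 ± 2.63, SD, n = 3), and an exact sign-flip test of it gave p = 0.75, in a pair singled out after its values were seen.

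**Figure D2:**
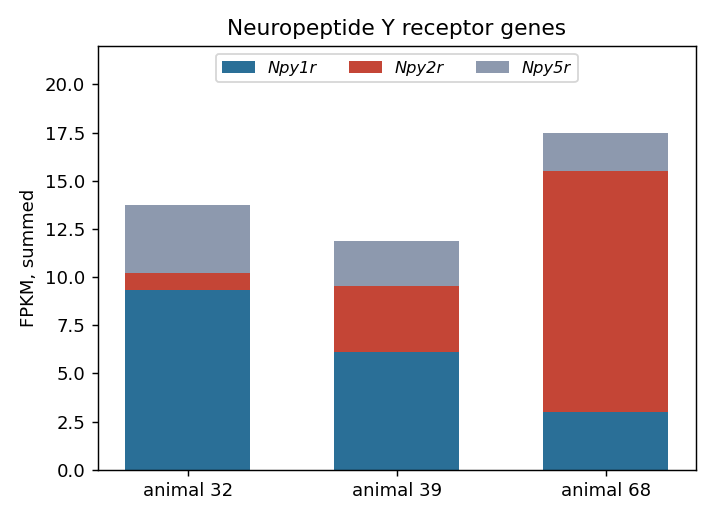
Stacked FPKM of Npy1r, Npy2r and Npy5r in each animal (1 library each, so no error bars). The sum lies between 11.9 and 17.5 FPKM, while Npy1r is the largest part in animals 32 and 39 and Npy2r in animal 68.

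The level of Npy2r differed between the animals by more than counting error. Its gene model in the tables spans 1147 bases, the shortest of the 10, and its values correspond to about 17, 61 and 253 fragments in animals 32, 39 and 68. The exact Poisson 95% intervals, 9.90 to 27.2, 46.7 to 78.4 and 223 to 286 fragments, correspond to 0.522 to 1.43, 2.63 to 4.42 and 11.0 to 14.1 FPKM and do not overlap. Animal 68 was 13.9-fold above animal 32 and 3.63-fold above animal 39, and 99.5% of the 13378 genes had a lower SD of log2 values. Its mean of 5.61 FPKM was 2.17 FPKM without animal 68. Choroid plexus, oligodendrocyte and astrocyte sums, given above, and the sum of 6 microglial genes (36.8, 60.2 and 88.2 FPKM) had the same order of animals as Npy2r. Of the 6 astrocyte genes, 4 had this order. So did the sums of 9 genes used by every cell (2107, 2154 and 2213 FPKM) and of 9 G protein alpha subunit genes (566, 575 and 595 FPKM). The sum of 16 receptor genes for other peptides (61.2, 63.3 and 87.3 FPKM) had it too. With 3 animals, a shared order is no usable measure of likeness. The 5 hippocampal genes summed to 5.04, 26.1 and 15.2 FPKM and the 5 thalamic genes to 20.6, 22.7 and 19.8 FPKM. The orders of these sums differ from that of Npy2r, but those of single genes were mixed. Of the 5 hippocampal genes, 3 had the order of Npy2r and 1 was listed at 0. The hippocampal median (0.195, 0.629 and 0.757 FPKM) had the order of Npy2r too, as did 2 of the 5 thalamic genes. The part of these structures in the level of Npy2r was not tested.

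Npy5r, a receptor best known from the hypothalamic control of feeding, measured 3.56, 2.33 and 1.99 FPKM in animals 32, 39 and 68. It is the neighbour of Npy1r on chromosome 16 (24797124 to 24805079, plus strand). The genes point away from each other, with 8383 bases and no other listed gene between them. Both had their highest value in animal 32 and their lowest in animal 68, although the order of animals 39 and 68 flips for Npy5r when libraries are scaled to the pan-neuronal genes. Npy1r exceeded Npy5r in 3 of 3 animals, by a log2 ratio of 1.09 ± 0.45 (SD, n = 3; exact sign-flip p = 0.25), a pair also singled out after its values were seen.

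Receptors for cholecystokinin, corticotropin-releasing hormone and vasoactive intestinal peptide were all lowest in animal 68. Their sum was 28.1, 20.5 and 8.25 FPKM in animals 32, 39 and 68. Crhr1, the main receptor for corticotropin-releasing hormone in brain and pituitary (chromosome 10, 92191718 to 92232645), measured 16.1, 9.17 and 2.86 FPKM. It was 5.64-fold lower in animal 68 than in animal 32 and 3.21-fold lower than in animal 39, and 98.5% of the 13378 genes had a lower SD of log2 values. Its mean of 9.38 FPKM was 6.02 FPKM without animal 32. Cckbr, which binds cholecystokinin and gastrin alike (chromosome 1, 170262156 to 170272298), measured 9.09, 8.77 and 3.96 FPKM, so animals 32 and 39 lay close together above animal 68. Vipr1, which binds both vasoactive intestinal peptide and PACAP (chromosome 8, 130283542 to 130309980), had the lowest mean of the 10 and measured 2.85, 2.58 and 1.44 FPKM.

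The window before the start of a gene is shown for 4 receptors, to set their sequence side by side. As deposited, Crhr1 and Cckbr were more than 2-fold lower in animal 68 than in animal 32, and Sstr2 and Sstr4 were not. With pan-neuronal scaling Cckbr was less than 2-fold lower. RefSeq promoter windows in build GRCr8 matched all 10 genes, and in 6 the window ended at the outermost start of the gene. In the other 4, among them Npy1r and Npy2r, it ended elsewhere, and these are not shown. Crhr1 had 2 windows, of which the one that ended at the start is shown. Capitals mark matches on either strand to GGGCGG (the GC box bound by Sp1) or TGACGTCA (the cyclic AMP response element, CRE), and TATAAA was searched too. The windows of 250 bases are chr10:89539942-89540191 (plus strand) for Crhr1, chr1:169183328-169183577 (plus strand) for Cckbr, chr10:99163103-99163352 (plus strand) for Sstr2 and chr3:156307742-156307991 (plus strand) for Sstr4.
Crhr1: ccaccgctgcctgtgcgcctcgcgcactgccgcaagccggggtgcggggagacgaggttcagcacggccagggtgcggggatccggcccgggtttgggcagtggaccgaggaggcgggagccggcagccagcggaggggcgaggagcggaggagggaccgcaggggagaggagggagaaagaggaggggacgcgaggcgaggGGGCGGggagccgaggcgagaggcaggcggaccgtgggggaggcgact
Cckbr: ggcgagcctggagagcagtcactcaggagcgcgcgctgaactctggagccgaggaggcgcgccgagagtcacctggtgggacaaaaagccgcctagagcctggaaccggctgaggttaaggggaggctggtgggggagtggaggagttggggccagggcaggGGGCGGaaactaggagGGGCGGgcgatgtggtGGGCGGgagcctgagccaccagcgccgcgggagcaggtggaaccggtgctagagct
Sstr2: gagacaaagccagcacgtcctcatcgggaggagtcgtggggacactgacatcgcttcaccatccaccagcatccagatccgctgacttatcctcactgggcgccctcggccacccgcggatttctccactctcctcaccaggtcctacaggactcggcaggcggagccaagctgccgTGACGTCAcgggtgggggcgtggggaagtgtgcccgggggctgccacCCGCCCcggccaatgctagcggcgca
Sstr4: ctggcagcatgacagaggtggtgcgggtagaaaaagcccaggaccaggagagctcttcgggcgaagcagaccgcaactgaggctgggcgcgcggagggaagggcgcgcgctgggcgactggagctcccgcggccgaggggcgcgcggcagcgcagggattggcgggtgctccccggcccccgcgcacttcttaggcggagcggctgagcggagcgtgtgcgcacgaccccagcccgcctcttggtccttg

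All 4 windows were rich in G and C, at 75.6% for Crhr1, 68.8% for Cckbr, 66.4% for Sstr2 and 72.0% for Sstr4, against a median of 51.2% over 33469 windows of the same length. Npy5r stood lower, at 52.0%. Cckbr held 3 GC boxes and Crhr1 and Sstr2 held 1 each, while 30.5% of all windows held at least 1. Sstr2 held the single complete CRE among the 6 windows, a sequence found in 1.59% of all windows. TATAAA was found in none of the 6 and in 12.9% of all windows. Such matches describe the letters and show no binding.

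How far the receptor genes differed between single animals was set against all genes whose mean reached 1 FPKM, with 1 library on each side and therefore no test. Between animals 32 and 68, 5 of the 10 receptor genes were more than 2-fold apart, against 12.8% of the 13378 genes. Crhr1, Npy1r, Sstr1 and Cckbr were lower in animal 68, where 3.05% of all genes were, and Npy2r was higher, where 9.77% were. With libraries scaled to the pan-neuronal genes, 3 of 10 were more than 2-fold apart, against 23.5% of all genes. Of these 3, 2 were lower (Crhr1 and Npy1r) and 1 higher (Npy2r) in animal 68, against 1.06 and 22.4% of all genes. Sstr1 and Cckbr were then less than 2-fold lower, at -0.71 and -0.69 on the log2 scale. Between animals 39 and 68 there were 4 of 10, against 6.14% of all genes. Of these, 3 were lower and 1 higher in animal 68, against 1.97 and 4.18% of all genes in these directions. Pan-neuronal scaling left 2 of 10 for this pair of animals, against 10.6% of all genes. Without animal 68 the comparison of animals 39 and 32 left 1 of 10, against 3.14% of all genes. This was Npy2r, 3.84-fold higher in animal 39, where 2.59% of genes were higher and 0.553% lower. The median log2 difference of animal 68 over animal 32 was -0.87 for the receptor genes and 0.07 for all genes, and Vipr1 lay just inside the 2-fold bound at -0.94. The median SD of log2 values over the 10 receptor genes was 0.59, and 0.20 without animal 68. Over the 13378 genes this median was 0.20 with all 3 animals, and it was not taken without animal 68. The receptor value without animal 68 therefore has nothing to be read against.

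**Figure D3:**
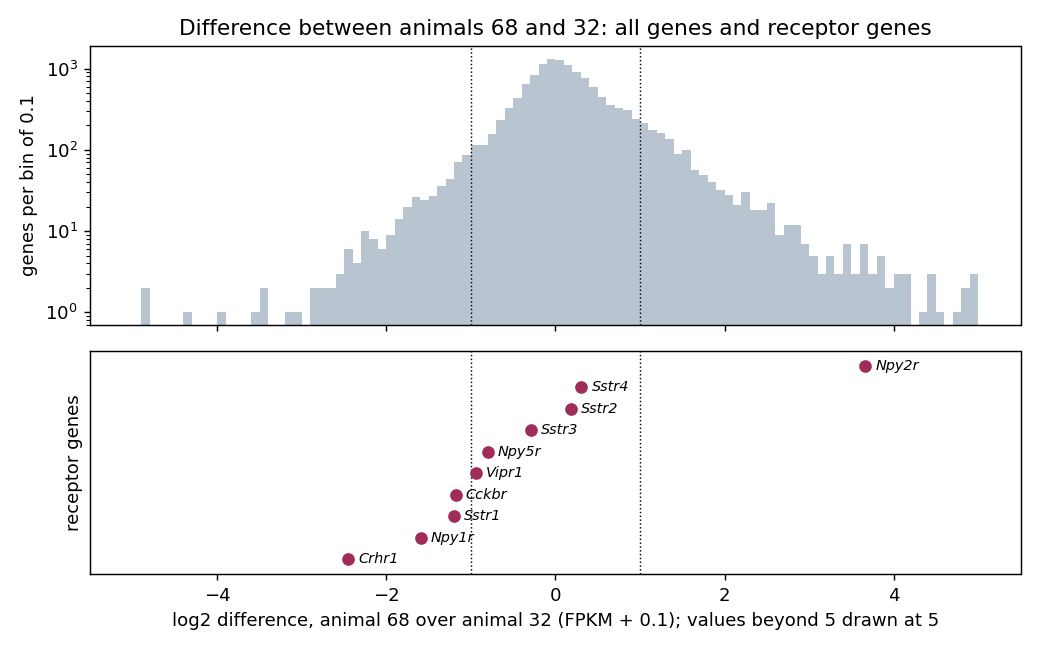
Log2 difference of animal 68 over animal 32 (FPKM + 0.1) for all 13378 genes whose mean reached 1 FPKM (histogram, log axis) and for the 10 receptor genes (points). Dotted lines mark 2-fold; Crhr1, Npy1r, Sstr1 and Cckbr lie below -1 and Npy2r at 3.66.

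The marker lists moved beside these differences, and their part in them was not tested. In the values as deposited, 11 of the 12 pan-neuronal genes were lower in animal 68 than in animal 32, and none was more than 2-fold lower. Of the 5 upper-layer genes, 2 were more than 2-fold lower in animal 68 than in animal 32, namely Cux2 at 27.0, 16.8 and 7.24 FPKM and Calb1 at 72.8, 43.0 and 21.0 FPKM in animals 32, 39 and 68. Wfs1, the highest of the list, was higher in animal 68 than in animal 32 at 75.2, 101.6 and 91.2 FPKM. Rorb and Cux1 differed between these animals by log2 values of -0.26 and -0.40, both of which turn positive with pan-neuronal scaling. The 8 interneuron subclass genes summed to 314, 243 and 147 FPKM, 2.14-fold lower in animal 68 than in animal 32. Gene by gene, 5 of the 8 were higher in animal 68 than in animal 32 and 3 lower, with 1 more than 2-fold higher. The median of the list was 5.02, 5.40 and 5.81 FPKM in animals 32, 39 and 68. Pvalb, at 149, 110.3 and 72.2 FPKM, and Lamp5, at 139, 105 and 41.7 FPKM, were the 2 of the 8 more than 2-fold lower. Pvalb was less than 2-fold lower with pan-neuronal scaling. Reln (10.5, 9.84 and 13.4 FPKM) and Calb2 (5.90, 6.10 and 5.23 FPKM) were within 2-fold. The 7 deep-layer genes summed to 249, 266 and 237 FPKM, with none more than 2-fold apart, and the 6 GABAergic neuron genes to 294, 261 and 257. Among the 8 striatal genes, 6 were more than 2-fold higher in animal 68, and all 8 oligodendrocyte genes were. In bulk tissue, fewer cells of a type and less RNA per cell cannot be told apart.

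**Figure D4:**
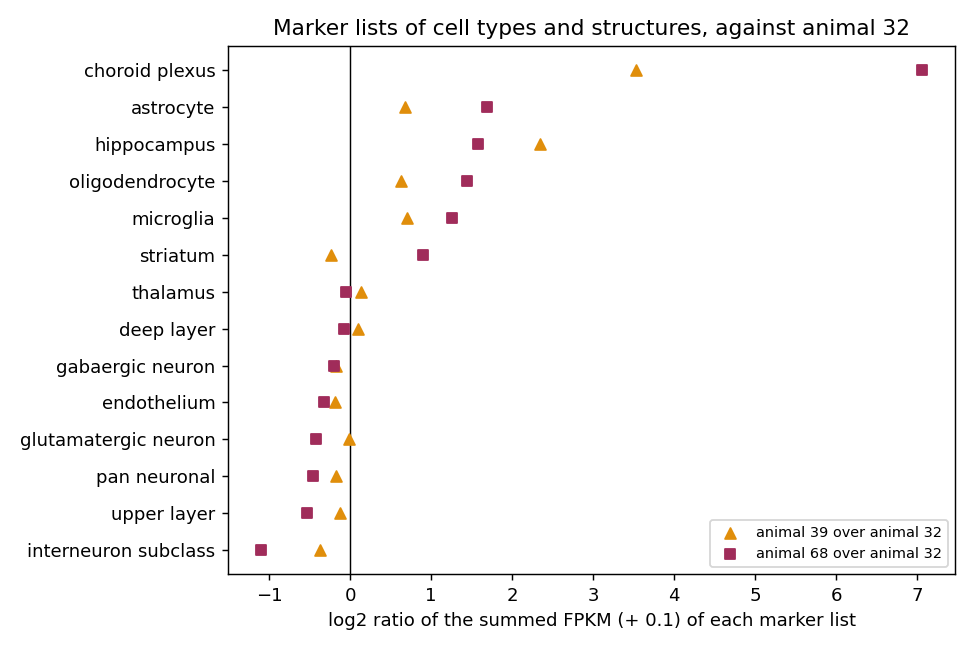
Log2 ratio of the summed FPKM (plus 0.1) of each marker list in animals 39 and 68 over animal 32. Choroid plexus stands farthest out at 7.07 in animal 68, followed by astrocyte (1.69), hippocampal (1.57), oligodendrocyte (1.44) and microglial (1.26) genes, while the pan-neuronal sum is at -0.45 and the interneuron subclass sum at -1.10. The hippocampal sum is higher in animal 39, at 2.35, than in animal 68.

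The peptide genes themselves were next compared with their receptors. Sst measured 167, 193 and 103 FPKM in animals 32, 39 and 68, and the 4 receptor genes together were 4.25-fold below it (log2 ratio -2.09 ± 0.29, SD, n = 3). Cck measured 200, 207 and 89.7 FPKM, 22.4-fold above Cckbr. The log2 ratio of Cckbr to Cck was -4.44, -4.55 and -4.47 in the 3 animals, an SD of 0.06. As deposited, both genes were more than 2-fold lower in animal 68 than in animal 32. With pan-neuronal scaling neither was, at log2 differences of -0.69 for Cckbr and -0.65 for Cck. Vip measured 29.96, 17.6 and 7.44 FPKM, 6.92-fold above Vipr1 on average. Its log2 ratio to the receptor differed more, with Vipr1 below Vip by log2 ratios of -3.35, -2.72 and -2.30.

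Of the 4 peptide genes compared, Crh alone was below its receptor. It measured 6.41, 3.62 and 1.37 FPKM in animals 32, 39 and 68, and Crhr1 exceeded it in 3 of 3 animals by log2 ratios of 1.32, 1.32 and 1.01 (2.32-fold on average). Peptide and receptor were thus both highest in animal 32 and lowest in animal 68. For each of these 4 ratios the exact sign-flip test gave p = 0.25, the smallest possible with 3 animals. Adcyap1, which encodes PACAP, another ligand of Vipr1, measured 9.996, 4.93 and 1.62 FPKM, and Ucn, which encodes the other Crhr1 ligand urocortin, 0.212, 0.113 and 0 FPKM. Npy and Pyy, the ligands of the neuropeptide Y receptors, were listed at 0 in every animal. The tables also list Hprt1, Rpl8 and Rps6 at 0, genes needed in all cells, so such a value is no sign that a gene is silent, and no ratio to Npy was taken.

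**Figure D5:**
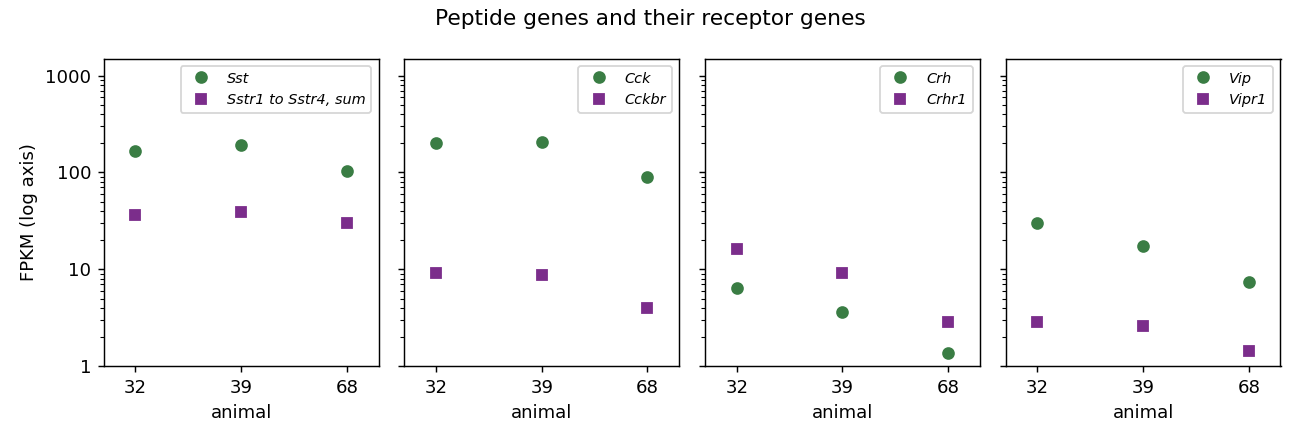
FPKM (log axis) of the peptide genes Sst, Cck, Crh and Vip (circles) and of their receptor genes (squares; for Sst the sum of Sstr1 to Sstr4) in each animal. Sst, Cck and Vip lie above their receptors and Crh below Crhr1 in all 3 animals.

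Other receptors for the same peptides were also measured. Of 7 listed, 6 were found and 2 reached 1 FPKM in every animal. Vipr2, Crhr2, Cckar and Npy4r had means above 0 and below that of each of the 10 receptor genes. The PACAP receptor gene Adcyap1r1 measured 22.3, 15.7 and 34.0 FPKM in animals 32, 39 and 68, above every one of the 10 receptor genes in each animal. Vipr2 measured 1.15, 1.301 and 1.11 FPKM, below Vipr1 in 3 of 3 animals, a comparison chosen after the values were seen. Crhr2, the receptor that binds urocortins best, measured 0.493, 0.673 and 2.31 FPKM, so that Crhr1 exceeded it by 4.77, 3.58 and 0.30 on the log2 scale, a comparison made after the values were seen. Cckar was at 0.0805, 0.258 and 0.0377 FPKM. Npy4r was at 0.144, 0.103 and 0.0450 FPKM, which is 3, 2 and 1 fragments, and Sstr5 was listed at 0.

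Genes of proteins that bind these peptides or modify the receptors were present in every animal. Crhbp, a secreted protein that binds corticotropin-releasing hormone, measured 11.9, 11.5 and 6.78 FPKM in animals 32, 39 and 68. The receptor activity modifying proteins Ramp1, Ramp2 and Ramp3, which associate with several peptide receptors of the Crhr1 and Vipr1 class, measured 26.7 ± 4.61, 12.1 ± 0.229 and 9.46 ± 2.14 FPKM (SD, n = 3). None of the 4 was more than 2-fold apart between animals 32 and 68.

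Signalling partners of the receptors were measured as well. All 9 G protein alpha subunit genes reached 1 FPKM in every animal, led by Gnao1 (185 ± 11.0 FPKM, SD, n = 3), Gnai2 (79.9 ± 12.9), Gnas (76.7 ± 3.49) and Gnai1 (73.6 ± 4.49). Of the 9, Gnal alone, the olfactory and striatal relative of Gnas, was more than 2-fold apart between animals 32 and 68, at 6.16, 6.40 and 18.1 FPKM in animals 32, 39 and 68. Adenylyl cyclase genes reached 1 FPKM in 8 of 10 cases, led by Adcy1 (67.6 ± 29.6), Adcy2 (47.9 ± 12.5), Adcy5 (34.5 ± 7.79) and Adcy9 (17.5 ± 1.06). The GIRK channel genes Kcnj3 and Kcnj9 measured 54.7, 42.4 and 29.3 FPKM and 59.8, 38.7 and 20.4 FPKM, each lowest in animal 68. The GIRK channel genes Kcnj6 (6.28, 8.34 and 6.29 FPKM) and Kcnj5 (0.201, 0.377 and 0.636 FPKM) were not lowest there. Plcb1, a phospholipase C gene, measured 51.2 ± 7.71. Plcb4 measured 9.33 ± 3.90. Among arrestin and receptor kinase genes, all 7 found reached 1 FPKM, led by the receptor kinase gene Adrbk1 (88.4 ± 16.9), Arrb1 (22.4 ± 1.36), Arrb2 (21.1 ± 2.67) and the receptor kinase gene Grk6 (9.97 ± 0.833).

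A list of 16 receptor genes for other peptides gave a further yardstick. Of these, 4 reached 1 FPKM in every animal, namely Ntsr2 (46.6 ± 15.9 FPKM, SD, n = 3), Mchr1 (11.5 ± 0.899), Tacr3 (6.87 ± 2.61) and Tacr1 (1.43 ± 0.532), and Galr2 was listed at 0. The list was chosen with the levels of some such genes known, so its count beside the 9 of 10 above is a description.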

How the data were processed

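Motor cortex mRNA of 3 rats was sequenced, 1 library per animal, and the labels put all 3 in 1 group. To obtain FPKM, the authors counted fragments of each gene, normalized them and ran a Perl script, per the labels. The submitters' processing notes list HISAT2 2.0.4, StringTie 1.3.0 and Rnor_6.0 with no role. Strandedness is not stated there, so overlapping and antisense genes may share fragments.

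Depth was inferred as the commonest worth of 1 fragment among genes with loci up to 400 bases, and 82.0 to 86.6% of those detected were within 0.02 fragments of a whole number. Fragments were counted only for Sstr4, Npy2r and Npy4r, chosen for their short loci of 1864, 1147 and 1257 bases. The locus length was taken as the gene length. The values so obtained lay within 0.15 of a whole number, which was not a condition of the choice. No value above 0 was equal in 2 libraries.

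Levels were compared within animals by exact sign-flip tests (2-sided) of log2(FPKM + 0.1). Between animals, genes more than 2-fold apart on that scale were counted among those whose mean reached 1 FPKM, which all 10 receptor genes did; printed folds between animals are on FPKM itself. Named genes are the 10 receptors, their ligands, related receptors and modifiers, and up to 4 highest genes of other lists with those listed at 0. Gnal, Kcnj5 and Kcnj6 were chosen after their values were seen. Cort, Npy6r, Otx2 and Pecam1 were not matched. Members and lists were chosen with earlier results of these data known. No gene was named for a similar pattern, since 3 animals give no usable measure of likeness. Alternatives changed scaling, pseudocount, filter and detection level and left out each animal. Python 3.11.15, pandas 2.3.3, numpy 2.4.6 and scipy 1.17.1 were used.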

Additional observations from a re-analysis of the deposited data

How the results depend on the processing

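Of 340 recomputed values for 53 results, 49 could not change by construction, such as a difference between 2 animals when the other one is left out or a ratio within a library under scaling. Of the other 291, 278 kept their direction and stayed within the spread of the animals or, for counts and the median SD, within 1.5 times. The median SD of the receptor genes ran from 0.20 (without animal 68) to 0.75 (without animal 39) with 1 animal left out. The median SD of all genes was not taken with an animal left out. Scaling to the pan-neuronal median moved the median log2 difference of animal 68 over animal 32, over all genes, from 0.07 to 0.58. It left 3 receptor genes in place of 5 more than 2-fold apart between animals 32 and 68. The share of all genes went from 12.8 to 23.5% there. Between animals 39 and 68 it left 2 in place of 4, where that share went from 6.14 to 10.6%. It also turned the sign of the log2 difference of animal 39 over 32 for Sstr1 (0.11), Cckbr (0.13) and Vipr1 (0.038), of animal 68 over 32 for Sstr3 (0.21), and of animal 68 over 39 for Sstr2 (0.063) and Npy5r (0.092). By construction this scaling raises the values of animal 68. At a level of 5 FPKM in every animal, 3 receptor genes passed in place of 9. The share of all genes at that level was not counted, so this count has nothing to be read against. Neighbours in the order with the same sign in every animal numbered 1 of 9 with all animals and 2 to 3 with 1 animal left out, where fewer animals need to agree. Median-of-ratios scaling and equal totals without mitochondrial genes each put 1 more receptor gene past 2-fold between animals 32 and 68 (Vipr1) and between animals 39 and 68 (Npy1r). The share of all genes past 2-fold did not rise with these counts. Under both scalings it fell below the 12.8% as deposited between animals 32 and 68. Between animals 39 and 68 it fell below 6.14%. No paired analysis was possible because there is no other group whose animals could be paired with these; ratios of genes were taken within each animal. With 3 libraries, no exact test here could go below p = 0.25, and for genes other than Sstr4, Npy2r and Npy4r the number of fragments behind a value is unknown.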
